A study of Mus musculus with 6 samples.

Results

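The 10 genes described here encode the cyclins, the kinase and the inhibitors that act in the G1 phase of the cell cycle: the D-type cyclin genes Ccnd1, Ccnd2 and Ccnd3, the E-type cyclin genes Ccne1 and Ccne2, the kinase gene Cdk4, and the inhibitor genes Cdkn1a, Cdkn1b, Cdkn2a and Cdkn2b. They were taken by name, and all 10 were found among the 51912 genes of the table. Their transcripts were measured by RNA-seq in cultured primary fibroblasts of the mouse. Of the 6 libraries, 3 came from cells kept for 48 h with the chemokine CXCL3 and 3 from control cells, with an age of 6 weeks given for all of them. CXCL3 is a secreted chemokine whose known receptor is CXCR2, and the series concerns CXCL3, fibroblasts and the spread of pancreatic cancer. The organ of origin, the strain, the dose and the agent given to control cells, if any, are not stated. The labels do not say that libraries came from separate cultures or animals, so the p-values measure the spread between these libraries, which may be technical.

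In G1, D-type cyclins made in response to growth factors bind CDK4 or CDK6, and E-type cyclins bind CDK2 as cells approach S phase. These kinases phosphorylate the retinoblastoma protein, which then releases E2F transcription factors and lets the genes of DNA synthesis be transcribed. The INK4 proteins, among them those of Cdkn2a and Cdkn2b, bind CDK4 and CDK6. The CIP/KIP proteins p21 (Cdkn1a) and p27 (Cdkn1b) bind complexes of cyclin and kinase, chiefly those of CDK2. Cultured fibroblasts are the cells in which much of this circuit was worked out, and the INK4 genes are known to become more active as mouse fibroblasts are passaged.

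Levels are in TPM, a unit that scales reads by transcript length and by the library total, so levels of different genes can be set side by side. The unit keeps no trace of sequencing depth, which is therefore unknown here, and values carry no counting interval. The 6 libraries did not all resemble their groups. Control 1 lay beside the CXCL3 libraries on the first principal component (-19.2, against -18.7, -16.0 and -9.39 for CXCL3 libraries 1, 2 and 3), and controls 2 and 3 lay far from them (36.6 and 26.6). Each library's departure from the average library went with transcript length across genes (Spearman's rho 0.20 to 0.40 in CXCL3 libraries, 0.45 in control 1, and -0.50 and -0.48 in controls 2 and 3). Fibroblast markers were present, and markers of macrophages had a higher sum in every library. The summed TPM of 10 fibroblast markers was 3987 to 4107 in CXCL3 libraries and 3819 to 4719 in controls. Much of it was Vim (1689 TPM in CXCL3 libraries and 1563 TPM in controls) and S100a4 (770 TPM in CXCL3 libraries and 610 TPM in controls). The sum without these genes was not taken. Of the others, Col1a1 (603 TPM in CXCL3 libraries and 721 TPM in controls), Col1a2 (459 and 553) and Dcn (285 and 316) were high. Pdgfrb (21.9 and 22.1), Thy1 (18.7 and 22.6) and Pdgfra (13.6 and 12.2) were far lower, and Lum (0.10 and 0.38) was below the filter. Of the 9 fibroblast markers tested, 4 had a positive and 5 a negative fold change. The collagen gene Col3a1 (196 TPM in CXCL3 libraries and 407 TPM in controls) was the only one of the 9 tested that passed, and it was lower. The sum of 15 macrophage markers was 15783 to 15888 in CXCL3 libraries and 16095 to 19162 in controls. Most of it was the lysozyme gene Lyz2, and without Lyz2 the sums were 2587 to 2687 TPM in CXCL3 libraries and 2835 to 2996 TPM in controls. Among the others were Tyrobp (590 TPM in CXCL3 libraries and 635 TPM in controls), Adgre1 (450 and 439), Cd68 (284 and 295) and Csf1r (101 and 94.7). Ptprc (18.3 and 16.0) was lower, and Cx3cr1 (0.44 and 1.19) was below the filter. Of the 14 macrophage markers tested, 6 had a positive and 8 a negative fold change, and the complement gene C1qa (167 TPM in CXCL3 libraries and 289 TPM in controls) passed and was lower. Epithelial markers summed to at most 1.96 TPM in a library and endothelial markers to at most 3.82. Lymphocyte markers summed to at most 0.14 TPM, with Cd3e and Cd3d at 0 throughout.

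Cdkn1a and Cdk4 had the highest mean levels of the 10 genes. Over all 6 libraries, Cdkn1a averaged 312.9 ± 14.2 TPM and Cdk4 302 ± 77.2 TPM (SD, n = 6), and 3.42% and 3.56% of the 13139 genes tested had a higher mean. Cdkn2a followed at 104 ± 9.01 TPM, then Ccnd3 at 101 ± 5.79 and Ccnd2 at 80.1 ± 15.7 TPM. Ccnd1 averaged 30.2 ± 6.66 TPM, Cdkn2b 27.6 ± 2.69, Cdkn1b 19.4 ± 1.78, Ccne1 18.4 ± 2.18 and Ccne2 7.42 ± 1.89 TPM. The ranges over the 6 libraries did not overlap at 4 steps of this order: below Cdk4, Ccnd2, Cdkn2b and Ccne1. Neighbours with overlapping ranges were Cdkn1a and Cdk4, then Cdkn2a, Ccnd3 and Ccnd2, then Ccnd1 and Cdkn2b, and finally Cdkn1b and Ccne1. Within single libraries Ccnd3 exceeded Ccnd2 in 6 of 6, while Cdkn2a exceeded Ccnd3 in 3 of 6. Because these are whole cultures, the cell type that held each transcript cannot be named, and fewer cells of a type cannot be told apart from less RNA per cell.

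**Figure D1:**
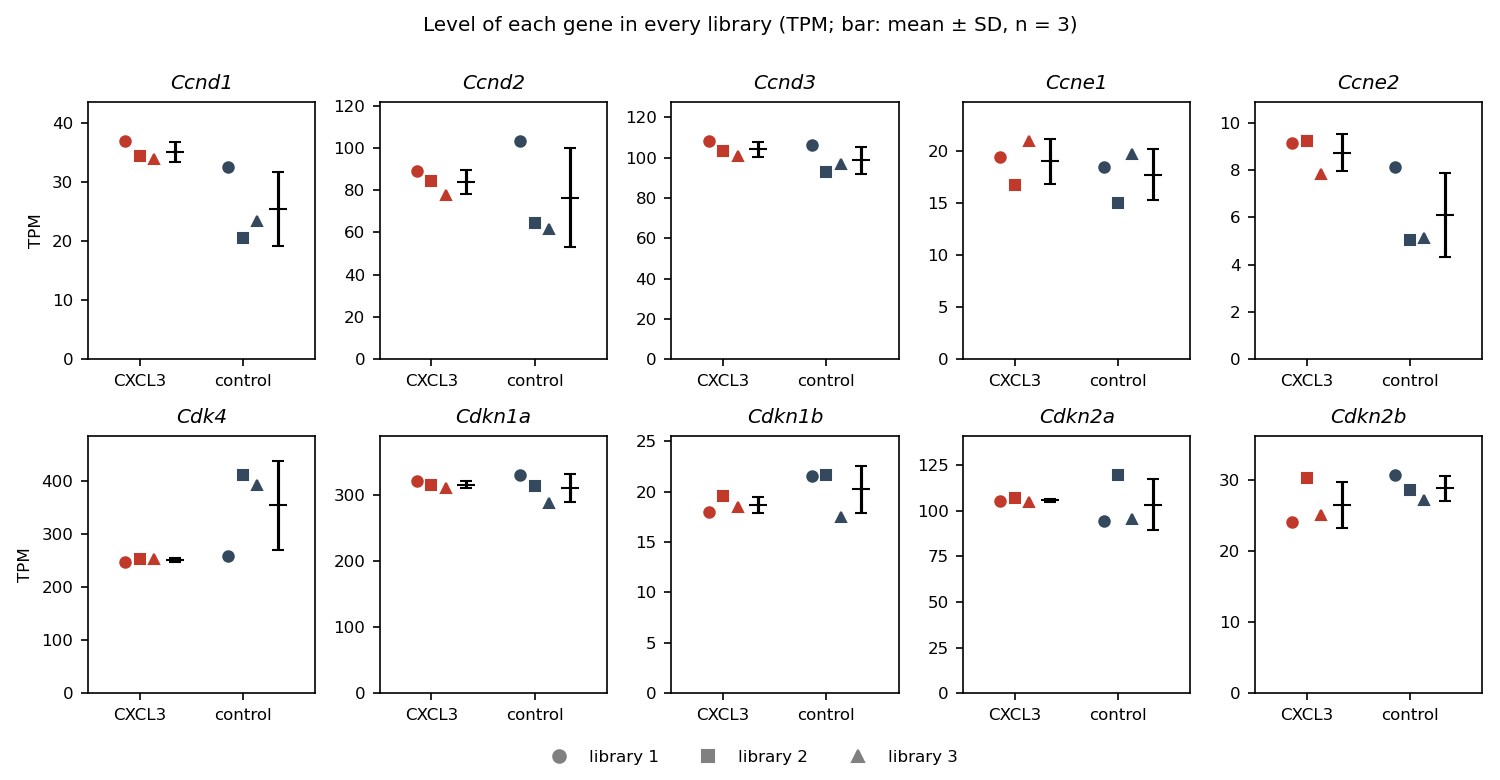
TPM of each of the 10 genes (vertical axes, each from 0) in the CXCL3 libraries (red) and the control libraries (dark), with symbols for libraries 1, 2 and 3 and a bar for the mean and SD of the group (n = 3). In Ccnd1, Ccne2 and Cdk4 control 1 lay near the CXCL3 libraries and controls 2 and 3 apart, while Cdkn1a lay between 287 and 329.7 TPM in all 6 libraries.

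None of the 10 genes passed the test between CXCL3 and control (limma on log2(TPM + 1), Benjamini-Hochberg adjusted p under 0.05 over 13139 genes). Of all genes tested, 0.16% passed, 0.0304% higher and 0.129% lower. An unadjusted p under 0.05 was found for 3 of the 10, Ccnd1, Ccne2 and Cdk4, against 11.6% of all genes (5.93% with a positive and 5.65% with a negative fold change). The 3 libraries of each group did not overlap for 2 of the 10, Ccnd1 (higher) and Cdk4 (lower), against 17.2% of all genes (7.92% higher and 9.31% lower), so that share is near the background. The median log2 fold change was 0.06 for the 10 genes and 0.07 for all genes, with 7 of 10 and 62.3% positive (5 of 10 with median-of-ratios scaling or with trends in length and GC content removed, where 6582 and 6506 of the 13139 genes were positive). Permuting 3 against 3 libraries gives no p smaller than 0.1, and was not used here.

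Among the D-type cyclins, which sense mitogens, Ccnd1 was the least abundant. Ccnd1 (chromosome 7, 144929931 to 144939925, minus strand, GRCm38) had 37.0, 34.4 and 33.8 TPM in CXCL3 libraries 1, 2 and 3, against 32.5, 20.5 and 23.3 TPM in controls 1, 2 and 3. All CXCL3 libraries lay above all controls, but control 1 was just under the lowest of them, and controls 2 and 3 were far below. The means were 35.0 ± 1.69 TPM with CXCL3 and 25.4 ± 6.24 TPM in controls (SD, n = 3 each), a ratio of 1.38 (log2 fold change 0.47 ± 0.16 SE, 95% interval 0.10 to 0.85, limma, adjusted p = 0.362). LTO1, on the opposite strand, shares exonic bases with Ccnd1 and had 19.7, 20.5 and 15.7 TPM in CXCL3 libraries, against 14.9, 12.6 and 13.7 TPM in controls. All its CXCL3 libraries also lay above all controls, and the counting is not stated to use strand, so reads in the shared bases cannot be told apart. Ccnd3 shares exonic bases in the same way with Bysl (11.7 to 14.4 TPM) and Ccne2 with Ints8 (12.0 to 17.5 TPM).

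Ccnd2 (chromosome 6, 127125162 to 127152193, minus strand) had 89.0, 84.4 and 77.6 TPM in CXCL3 libraries, against 103, 64.6 and 61.7 TPM in controls. Control 1 was the highest of the 6 libraries and controls 2 and 3 the lowest, so the CXCL3 libraries fell in between (83.7 ± 5.72 TPM with CXCL3 and 76.5 ± 23.3 TPM in controls, log2 fold change 0.17, 95% interval -0.27 to 0.60, limma, adjusted p = 0.665). The antisense gene Gm43126, which shares exonic bases with Ccnd2, ran the other way, with 30.8, 14.6 and 24.4 TPM in CXCL3 libraries and 23.4, 57.5 and 55.1 TPM in controls. Without strand, reads of these genes cannot be told apart in the shared bases. Ccnd3 (chromosome 17, 47505051 to 47599691, plus strand) had 108, 103 and 101 TPM in CXCL3 libraries, against 106, 92.8 and 97.1 TPM in controls. It was the steadiest of the D-type cyclins, and the groups overlapped through control 1 (log2 fold change 0.08, 95% interval -0.10 to 0.26, adjusted p = 0.612 by limma).

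The summed level of the D-type cyclins was 234, 222 and 212 TPM in CXCL3 libraries and 242, 178 and 182 TPM in controls, and the groups overlapped. Among their shares of the sum, only that of Ccnd1 divided the groups, as the level of Ccnd1 itself did. Ccnd1 made up 15.8%, 15.5% and 15.9% of the sum in CXCL3 libraries, against 13.4%, 11.5% and 12.8% in controls. The share was higher in every CXCL3 library than in every control, control 1 included, with means of 15.7% ± 0.24 with CXCL3 and 12.6% ± 0.96 in controls (SD, n = 3 each) and a difference of 3.13 percentage points. The overlapping gene LTO1 was higher in the same libraries, and its part in the share was not tested. No test is given for this share, which is formed over the genes described. Dividing a library by a single factor leaves it as it is by arithmetic. A trend with transcript length can move it, and the share was not taken with that trend removed. Ccnd2 made up 36.5% to 38.0% in CXCL3 libraries and 33.9% to 42.7% in controls, and Ccnd3 made up 46.2% to 47.5% in CXCL3 libraries and 43.9% to 53.3% in controls.

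**Figure D2:**
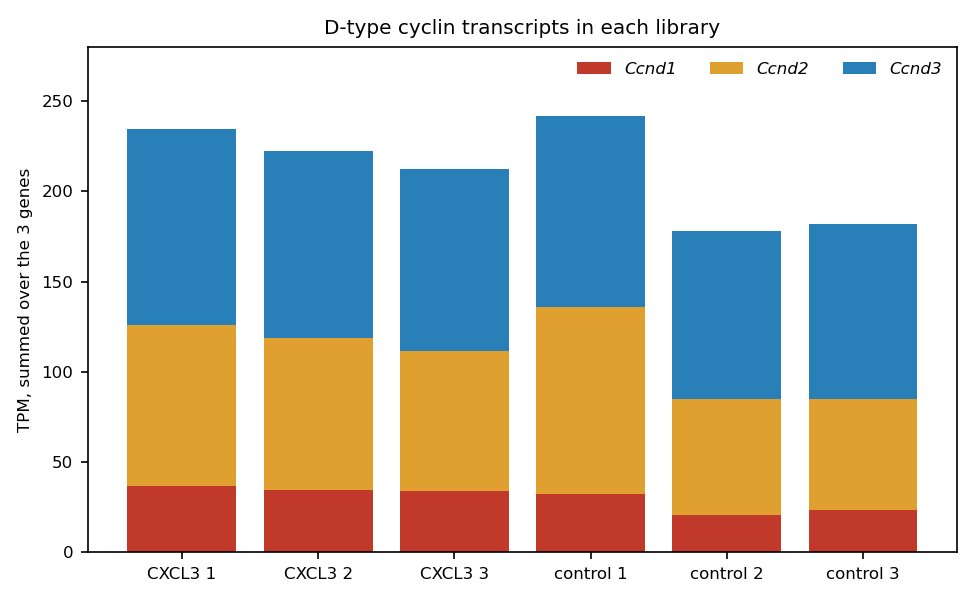
Summed TPM of Ccnd1, Ccnd2 and Ccnd3 (stacked bars, vertical axis from 0) in each of the 6 libraries. Control 1, at 242 TPM, had the highest sum, controls 2 and 3 had the lowest (178 and 182 TPM), and Ccnd1 was 15.5% to 15.9% of the sum in CXCL3 libraries and 11.5% to 13.4% in controls.

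The E-type cyclins, the partners of CDK2 at the start of S phase, had the lowest means over all 6 libraries, though Ccne1 and Cdkn1b overlapped in range. Ccne2 (chromosome 4, 11191351 to 11204779, plus strand) had 9.15, 9.24 and 7.83 TPM in CXCL3 libraries, against 8.14, 5.04 and 5.13 TPM in controls. Control 1 lay inside the range of the CXCL3 libraries, and controls 2 and 3 below it. The ratio of the means, 8.74 ± 0.79 TPM with CXCL3 and 6.10 ± 1.76 TPM in controls, was 1.43 (log2 fold change 0.48 ± 0.19 SE, 95% interval 0.04 to 0.92, limma, adjusted p = 0.413). Ccne1 (chromosome 7, 38097984 to 38107534, minus strand) had 19.4, 16.7 and 21.0 TPM in CXCL3 libraries, against 18.4, 15.0 and 19.7 TPM in controls. The groups overlapped almost wholly, and the log2 fold change of 0.10 had a 95% interval of -0.22 to 0.42 (limma, adjusted p = 0.716). Ccne2 contributed 32.0%, 35.6% and 27.2% of the E-type sum in CXCL3 libraries and 30.6%, 25.2% and 20.7% in controls, with overlap. The D-type sum was 7.38 to 8.56 times the E-type sum in CXCL3 libraries and 7.33 to 9.10 times in controls.

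Cdk4, the kinase that D-type cyclins activate, was the only one of the 10 whose CXCL3 libraries all lay below the controls. Cdk4 (chromosome 10, 127063534 to 127067920, plus strand) had 246, 252 and 254 TPM in CXCL3 libraries, against 258, 411 and 393 TPM in controls. Control 1 lay just above the highest CXCL3 library, whereas controls 2 and 3 were far above both. The means were 251 ± 3.96 TPM with CXCL3 and 354 ± 83.4 TPM in controls (1.41 times higher in controls, log2 fold change -0.46 ± 0.16 SE, 95% interval -0.85 to -0.08, limma, adjusted p = 0.375). The groups overlapped with median-of-ratios scaling of the libraries. Tspan31, on the opposite strand with shared exonic bases, had 112, 112 and 110.3 TPM in CXCL3 libraries and 126, 119 and 129 TPM in controls. All its CXCL3 libraries also lay below all controls, and without strand, reads in the shared bases cannot be told apart. The related kinase gene Cdk6 was scarce, at 3.82 ± 0.44 TPM in CXCL3 libraries and 3.95 ± 1.6 TPM in controls (adjusted p = 0.990), and Cdk4 exceeded it at least 45.3 times in each library. Cdk2, the partner of cyclin E, was at 16.7 ± 1.98 TPM with CXCL3 and 17.2 ± 1.65 TPM in controls (adjusted p = 0.881).

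The stretch before the Cdk4 start is shown because it is dense in CACGTG, the E-box that MYC and related factors bind, and because Myc was measured beside it. The sequence is RefSeq's for GRCm38.p6, chr10:127063285-127063533 on the plus strand, with CACGTG in capitals.
Cdk4 promoter: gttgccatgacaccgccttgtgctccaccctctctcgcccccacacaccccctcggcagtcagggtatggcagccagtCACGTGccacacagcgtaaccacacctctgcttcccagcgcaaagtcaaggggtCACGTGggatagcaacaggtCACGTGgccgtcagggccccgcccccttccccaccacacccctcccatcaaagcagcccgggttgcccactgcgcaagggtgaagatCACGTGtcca
CACGTG, which is its own reverse complement, occurs 4 times, beginning 171, 117, 97 and 10 bases before the gene's start in GENCODE. Of 32851 RefSeq windows of 250 bases before a start, 6.02% hold it at least once and 0.0213% at least 4 times. The match describes letters, not binding. Myc was at 56.4 ± 3.29 TPM in CXCL3 libraries and 57.0 ± 5.70 TPM in controls (log2 fold change -0.01, limma, adjusted p = 0.953).

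Among the CIP/KIP inhibitors, Cdkn1a was abundant and level across libraries. Cdkn1a (chromosome 17, 29090976 to 29100727, plus strand), the gene of p21 and a classical target of p53, had 321, 315 and 311 TPM in CXCL3 libraries, against 329.7, 314 and 287 TPM in controls. Controls 1 and 3 were the highest and the lowest of all, with the CXCL3 libraries between them (315 ± 5.23 TPM with CXCL3 and 310.4 ± 21.4 TPM in controls). The log2 fold change of 0.03 had a 95% interval of -0.14 to 0.19, the narrowest of the 10 (limma, adjusted p = 0.864), and its sign turned with median-of-ratios scaling (-0.053). Cdkn1b (chromosome 6, 134920401 to 134925513, plus strand), the gene of p27, had 18.0, 19.5 and 18.5 TPM in CXCL3 libraries, against 21.5, 21.6 and 17.5 TPM in controls. The groups overlapped through control 3, which was the lowest of all (18.7 ± 0.77 TPM with CXCL3 and 20.2 ± 2.36 TPM in controls, log2 fold change -0.10, 95% interval -0.37 to 0.16, adjusted p = 0.658 by limma). Cdkn1a exceeded Cdkn1b 16.1 to 17.8 times in CXCL3 libraries and 14.5 to 16.4 times in controls. p27 is known to be set largely by how fast the protein is destroyed, which RNA does not show. Skp2, the gene of the protein that marks p27 for destruction, was at 4.51 ± 0.68 TPM with CXCL3 and 4.54 ± 0.33 TPM in controls (adjusted p = 0.967).

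The stretch before the upstream Cdkn1a start is shown for its p53 element, given in capitals in the RefSeq sequence of GRCm38.p6, chr17:29090729-29090975 on the plus strand.
Cdkn1a promoter: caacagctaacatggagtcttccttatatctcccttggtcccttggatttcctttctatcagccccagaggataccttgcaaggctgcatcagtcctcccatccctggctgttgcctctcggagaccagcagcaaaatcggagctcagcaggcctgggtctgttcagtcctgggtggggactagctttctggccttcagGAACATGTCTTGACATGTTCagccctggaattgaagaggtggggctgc
The element spans 20 bases and begins 48 bases before the gene's start in GENCODE. It was found as the p53 consensus, which reads the same on both strands, with its C and G cores kept and at most 1 other mismatch. Such a match is in 19 of the 32851 windows (0.0578%). None was found in the other 9 windows of the genes described, including that of the downstream Cdkn1a start (chr17:29093519-29093768). Beside the element, the level of Trp53, which encodes p53, was 110.3 ± 0.52 TPM in CXCL3 libraries and 108 ± 2.34 TPM in controls (adjusted p = 0.826). Other p53 targets were read as a list of 22 genes, of which 0 passed by limma, 3 had an unadjusted p under 0.05 (11.6% of all genes did), and 17 had a positive fold change (62.3% of all genes), with a median of 0.16. The first count is near the background. Under other scalings 15 to 16 of the 22 were positive, against 6506 to 6655 of the 13139 genes. Mdm2, the gene of the ligase that degrades p53, had 162, 167 and 165 TPM in CXCL3 libraries, against 163, 121 and 122 TPM in controls (adjusted p = 0.420), the pattern in which control 1 sides with CXCL3. The pro-apoptotic gene Pmaip1 (16.3 ± 1.45 TPM with CXCL3 and 13.4 ± 0.46 TPM in controls) and the ribonucleotide reductase gene Rrm2b (5.53 ± 0.73 TPM with CXCL3 and 3.99 ± 0.98 TPM in controls) came next among those with a positive fold change. Lower means were those of the stress gene Gadd45a (144 ± 2.66 TPM with CXCL3 and 171 ± 10.5 TPM in controls), the antiproliferative gene Btg2 (42.4 ± 0.65 TPM with CXCL3 and 47.9 ± 1.78 TPM in controls) and the death receptor gene Fas (15.5 ± 2.29 TPM with CXCL3 and 16.6 ± 1.5 TPM in controls), with adjusted p from 0.302 to 0.721. For Gadd45a and Btg2 all CXCL3 libraries lay below all controls.

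Cdkn2a and Cdkn2b, the INK4 genes of the set, are neighbours on chromosome 4. Cdkn2a (chromosome 4, 89274471 to 89294653, minus strand) had 105, 107 and 105 TPM in CXCL3 libraries, against 94.6, 119 and 95.7 TPM in controls. The CXCL3 libraries lay close together and inside the range of the controls (106 ± 0.95 TPM with CXCL3 and 103 ± 14.1 TPM in controls, log2 fold change 0.04, 95% interval -0.19 to 0.27, limma, adjusted p = 0.844), and the sign turned with median-of-ratios scaling (-0.037). Cdkn2b, the neighbouring gene of p15 (chromosome 4, 89306299 to 89311039, minus strand), had 24.1, 30.2 and 25.1 TPM in CXCL3 libraries, against 30.7, 28.6 and 27.1 TPM in controls. CXCL3 library 2 lay among the controls and the other CXCL3 libraries below them (26.5 ± 3.29 TPM with CXCL3 and 28.8 ± 1.79 TPM in controls, log2 fold change -0.12, 95% interval -0.38 to 0.14, adjusted p = 0.599 by limma). With Cdkn2c and Cdkn2d, the other INK4 genes, the sum was 165 to 170.0 TPM in CXCL3 libraries and 153 to 181 TPM in controls. Cdkn2a made up 62.8% to 64.0% of it in CXCL3 libraries and 61.8% to 66.0% in controls, a share that includes its ARF transcript, which encodes no INK4 protein.

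The Cdkn2a value joins a pair of transcripts with different proteins. In the GENCODE annotation, the transcript of p19ARF, a protein that restrains MDM2 and so stabilises p53, begins with exon 1 at 89294334 to 89294653. The transcript of p16INK4A, the CDK4 inhibitor, begins with its own exon 1 at 89281986 to 89282192. Both continue into exon 2 at 89276645 to 89276985, read in different frames. A TPM per gene does not tell the transcripts apart, so the level above is that of both. The stretches before the 2 starts are shown because they differ in letters while the table gives them 1 value. They are RefSeq's for GRCm38.p6, minus strand, chr4:89294654-89294869 for the ARF start and chr4:89282193-89282442 for the INK4A start. A loose form of the E2F motif, TTTNNCGC where N is any base, is in capitals. A match describes letters, not binding.
Cdkn2a, ARF start: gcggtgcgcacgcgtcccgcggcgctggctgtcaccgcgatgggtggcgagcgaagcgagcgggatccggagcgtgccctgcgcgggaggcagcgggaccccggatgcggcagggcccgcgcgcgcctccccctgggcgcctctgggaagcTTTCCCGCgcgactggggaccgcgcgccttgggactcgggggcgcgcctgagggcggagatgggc
Cdkn2a, INK4A start: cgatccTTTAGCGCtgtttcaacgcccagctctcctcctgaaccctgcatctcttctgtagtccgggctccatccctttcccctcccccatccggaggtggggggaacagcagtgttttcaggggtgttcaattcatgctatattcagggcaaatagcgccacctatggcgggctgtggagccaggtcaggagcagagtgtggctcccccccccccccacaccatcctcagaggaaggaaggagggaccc
Each stretch holds this loose form once, as TTTCCCGC beginning 65 bases before the ARF start in GENCODE and as TTTAGCGC beginning 244 bases before the INK4A start. On either strand, 4.28% of the 32851 windows hold it, and no match was found in the windows of Ccne1, Ccnd3, Cdk4, Cdkn1a, Cdkn1b or Cdkn2b. E2f1, an activating E2F gene, was at 22.2 ± 1.36 TPM in CXCL3 libraries and 21.3 ± 2.56 TPM in controls (adjusted p = 0.797).

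Genes known to regulate the Cdkn2a and Cdkn2b locus were read as a list of 16, of which 15 were tested, since Tbx2 stayed below the filter. None passed by limma, and 2 had an unadjusted p under 0.05, against 11.6% of all genes. All 15 fold changes were positive, against 62.3% of all genes, with a median of 0.23, while 13 to 14 were positive under other scalings, where 6506 to 6655 of the 13139 genes were. The highest ranked was Id1, which encodes an inhibitor of ETS and basic helix-loop-helix factors, with 94.2, 105 and 95.9 TPM in CXCL3 libraries, against 54.1, 64.3 and 67.5 TPM in controls (adjusted p = 0.10). Its control 1 was the lowest of the controls and did not side with CXCL3. The Polycomb genes Ring1 (16.1 ± 2.02 TPM with CXCL3 and 12.2 ± 1.41 TPM in controls) and Suz12 (19.2 ± 0.59 TPM with CXCL3 and 15.5 ± 2.53 TPM in controls) followed. Bmi1 (24.0 ± 1.42 TPM with CXCL3 and 22.1 ± 1.95 TPM in controls) and Ezh2 (14.3 ± 2.25 TPM with CXCL3 and 13.5 ± 3.46 TPM in controls), whose Polycomb proteins silence the locus, had adjusted p of 0.588 and 0.821. Without controls 2 and 3, 4 of the 15 were positive and the median was -0.01, where that of all genes was -0.08.

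The difference of Ccnd1, Ccne2 and Cdk4 between the groups followed the division among the controls. Control 1 was nearer to the CXCL3 mean than to the mean of controls 2 and 3 on the log2 scale for 8 of the 10 genes, all but Cdkn1b and Cdkn2b, against 73.7% of all genes. That count is near the background, so the division was not particular to the genes described. Without control 1, 4 of the 10 passed: Ccnd1 (log2 fold change 0.65, adjusted p = 0.00538), Ccnd2 (0.40, 0.0102) and Ccne2 (0.68, 0.00765) were higher and Cdk4 (-0.68, 0.00336) was lower. In that fit 32.4% of all genes passed, 25.2% higher and 7.17% lower, so 4 of 10 is also near the background. With libraries weighted by their spread, Ccnd1, Ccne2 and Cdk4 passed in the same directions, and 11% of all genes did, 7.96% higher and 3.04% lower. Against control 1 alone, the log2 fold changes of these genes were 0.11 for Ccnd1, -0.30 for Ccnd2, 0.09 for Ccne2 and -0.04 for Cdk4. None of the 10 passed there, where 0.639% of all genes did, and the lone control is assumed to vary like the CXCL3 libraries. Their longest annotated transcripts have 3740 bases for Ccnd1, 6330 for Ccnd2, 3006 for Ccne2 and 2053 for Cdk4, in libraries whose values moved with such lengths. With each library's trend with length and GC content removed, Ccnd2 came to -0.05, while Ccnd1 (0.37, adjusted p = 0.145), Ccne2 (0.39, 0.265) and Cdk4 (-0.45, 0.309) kept their sign and did not pass. The summed macrophage markers were also lower in every CXCL3 library than in every control. Without Lyz2 and the complement genes C1qa, C1qb and C1qc, a subset taken after the values were seen, the sums of the other 11 overlapped, at 2026 to 2134 TPM in CXCL3 libraries and 1944 to 2196 TPM in controls. The part of these markers in the values of the 10 genes was not tested.

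**Figure D3:**
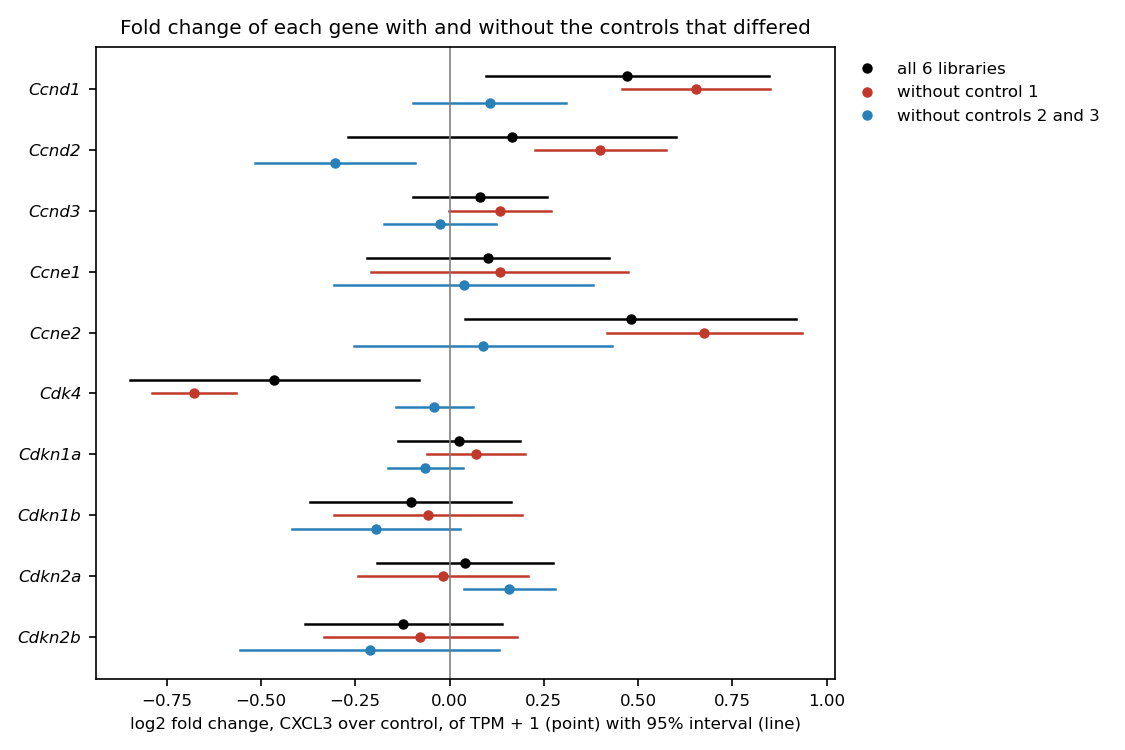
Log2 fold change of TPM + 1, CXCL3 over control, for each of the 10 genes (points) with its 95% interval (lines), from all 6 libraries (black), without control 1 (red) and without controls 2 and 3 (blue, where the lone control is assumed to vary like the CXCL3 libraries). Ccnd1, Ccne2 and Cdk4 moved farther from 0 without control 1 and close to 0 without controls 2 and 3, and Ccnd2 changed sign, 0.40 against -0.30.

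Other genes of the G1 to S circuit were read as a list of 28, which held the partners CDK2, CDK6 and CDK7, the retinoblastoma family, the E2F factors and their cofactors. By limma 0 passed, 3 had an unadjusted p under 0.05 (11.6% of all genes did), and 20 were positive (62.3% of all genes), with a median of 0.12. Under other scalings 14 to 16 of the 28 were positive, against 6506 to 6655 of the 13139 genes, so these counts are near the background. The list's smallest p values were those of the repressive E2F genes E2f7 (2.27 ± 0.13 TPM with CXCL3 and 1.25 ± 0.40 TPM in controls) and E2f8 (3.41 ± 0.30 TPM with CXCL3 and 2.33 ± 0.46 TPM in controls), with adjusted p of 0.341 and 0.402, and CXCL3 libraries lay above controls in both. Rbl1, the gene of the pocket protein p107, was at 5.38 ± 0.615 TPM with CXCL3 and 3.98 ± 0.845 TPM in controls (adjusted p = 0.446), and Rb1 at 8.16 ± 0.40 TPM with CXCL3 and 7.67 ± 1.87 TPM in controls (0.782). Mnat1, which encodes a subunit of the CDK-activating kinase, had the smallest p among those below controls (19.7 ± 1.54 TPM with CXCL3 and 23.5 ± 1.69 TPM in controls, adjusted p = 0.429), and Cdk7, the kinase itself, was at 9.26 ± 0.61 TPM with CXCL3 and 9.73 ± 1.15 TPM in controls.

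Genes that E2F factors switch on for DNA synthesis mostly had positive fold changes, and none of them passed. Of 26 such genes, 0 passed by limma, 12 had an unadjusted p under 0.05, all of them positive (5.93% of all genes), and 15 had CXCL3 libraries wholly above controls (7.92% of all genes). The fold change was positive for 25 of 26 (62.3% of all genes), and for 20 under other scalings, where 6506 to 6655 of the 13139 genes were. The median was 0.26, against 0.07 for all genes. Pola1, of DNA polymerase alpha, was at 3.81 ± 0.32 TPM with CXCL3 and 2.19 ± 0.46 TPM in controls (adjusted p = 0.266), and Chaf1a, of the chromatin assembly factor, at 10.4 ± 0.55 TPM with CXCL3 and 6.67 ± 1.58 TPM in controls (0.287). The transcription factor gene Mybl2 was at 4.08 ± 0.32 TPM with CXCL3 and 2.62 ± 0.34 TPM in controls (0.303). The helicase gene Mcm3, the only 1 of the 26 with a negative fold change, was at 39.3 ± 0.19 TPM with CXCL3 and 42.0 ± 2.41 TPM in controls (0.578), and its groups overlapped. Markers of dividing cells were read as a list of 12, with 0 passing by limma, 8 at an unadjusted p under 0.05, all of them positive (5.93% of all genes), 8 wholly above controls (7.92% of all genes) and a median of 0.50. Top2a had 37.7, 35.9 and 33.7 TPM in CXCL3 libraries, against 26.3, 26.1 and 22.0 TPM in controls (log2 fold change 0.51, adjusted p = 0.157). Here control 1 lay with the other controls. Cdc20 (19.5 ± 1.72 TPM with CXCL3 and 12.4 ± 1.73 TPM in controls, adjusted p = 0.168), Birc5 (26.0 ± 1.34 TPM with CXCL3 and 19.4 ± 1.00 TPM in controls, 0.216) and Mki67 (5.58 ± 0.41 TPM with CXCL3 and 3.45 ± 1.25 TPM in controls, 0.387) lay above controls as well, and Aurkb (10.1 ± 2.24 TPM with CXCL3 and 10.7 ± 1.48 TPM in controls, 0.794) did not. Without controls 2 and 3, the medians were 0.22 for the dividing-cell markers and 0.13 for the E2F targets, against -0.03 for the 10 genes and -0.08 for all genes. None of these lists was tested as a set.

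**Figure D4:**
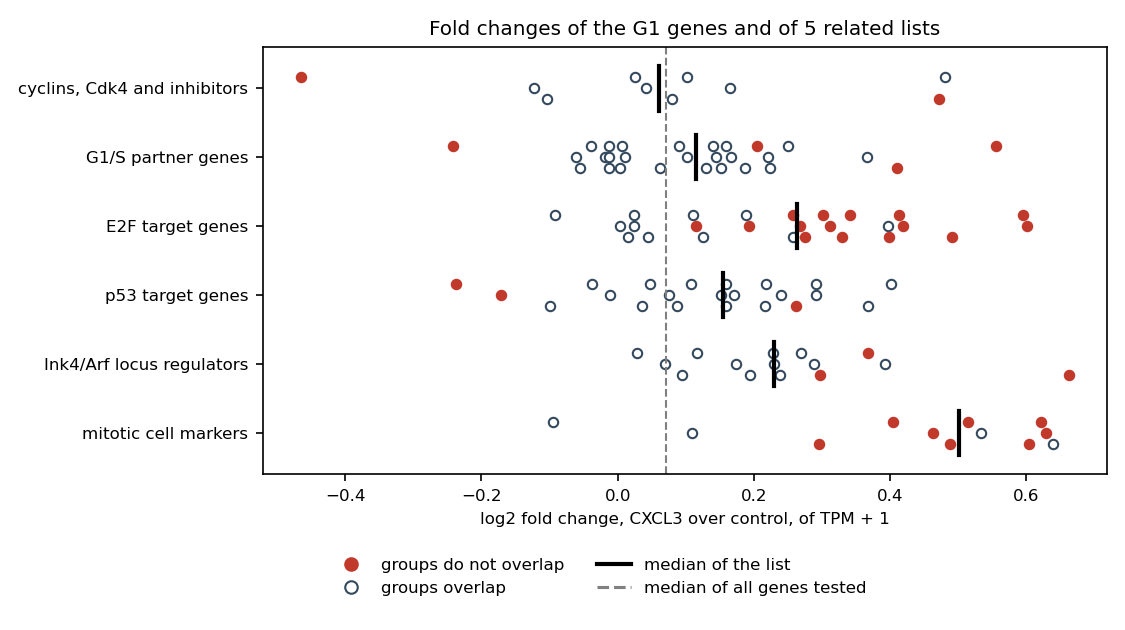
Log2 fold change of TPM + 1, CXCL3 over control, of each tested gene in the 10-gene set and in 5 related lists (horizontal axis), with filled points where the 3 libraries of each group do not overlap, black bars for list medians and a dashed line for the median of all genes (0.07). The medians were 0.06 for the 10 genes, 0.26 for E2F targets and 0.50 for dividing-cell markers.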

How the data were processed

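RNA-seq of primary mouse fibroblasts covered 3 libraries with CXCL3 and 3 controls, grouped by the treatment label. The authors deposited their values as TPM in a single table of 51912 genes. Tools named in the submitters' processing notes are fastp, HISAT and RSEM, with the build GRCm38.p5 and no versions. The annotation, filters and use of strand are not stated. Columns of the rows used sum to 984281 to 986705 TPM. GENCODE M21 gave symbols for 51719 genes, with positions and lengths. Length and GC content are those of the longest annotated transcript of a gene, which need not be the one expressed. Promoters came from RefSeq (GRCm38.p6), which held 10 windows for 7 of the 10 genes. Printed stretches end where GENCODE annotates an exon. The motifs were chosen after the windows were read.

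Genes were kept with at least 1 TPM in at least 3 libraries, which left 13139 and all 10 members. Fold changes are CXCL3 over control on log2(TPM + 1). They were tested two-sided with limma 3.58.1 (R 4.3.3, eBayes with trend), and p-values were adjusted by Benjamini-Hochberg over the 13139 genes. Such fold changes understate those of low genes. Data were simulated over 13139 genes, drawn independently with each gene's spread pooled over both groups. In them the test called 28.4% of 1.5-fold, 64.7% of 2-fold and 95.8% of 4-fold changes. The real controls spread more (median SD of 0.20 on the log2 scale, against 0.086 in CXCL3 libraries) and were divided. These shares may therefore not hold here. The genes and lists were chosen with earlier results of these data known. All 10 genes are named. Of each other list, up to 3 genes in each direction with the smallest p are named, and 11 further genes whatever their result. The marker lists followed the same rule, but not all of the genes it gave are named. Of the cell type markers named, all but Col3a1, C1qa, C1qb and C1qc were picked after their values were seen. Alternatives changed the pseudocount, filter, scaling, length and GC trend, variance model, library weights, replicate block and libraries used.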

Additional observations from a re-analysis of the deposited data

How the results depend on the processing

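No cyclin, kinase or inhibitor gene of the 10 passed in 15 of the 17 alternatives. With library weights, whose estimation stopped short of its tolerance, 3 passed (Ccnd1, Ccne2 and Cdk4, adjusted p from 0.0246 to 0.0424), and leaving out single libraries gave 0 to 4, with 4 without control 1. Over all genes, 21 passed (4 higher and 17 lower). This count was 5 with median-of-ratios scaling (0 higher), 57 with the length and GC trend removed (20 higher, 37 lower), 1 with eBayes without trend, 0 with no filter (1928 at an unadjusted p under 0.05), 1446 with library weights, 84 without controls 2 and 3, and 0 to 4254 when a library was left out, with 0 without control 3, CXCL3 1 or CXCL3 2, 1 without CXCL3 3 and 10 without control 2. Library weights gave 7 E2F targets, 2 p53 targets, 3 regulators of the Ink4 locus and 6 dividing-cell markers. In the same order, leaving out a library gave 0 to 15, 0 to 9, 0 to 9 and 0 to 9, and 0 to 7 partner genes, each highest without control 1. Id1 alone passed with the trend removed and without controls 2 and 3 (1 regulator each). The replicate block gave 12 calls over all genes and 0 of the 10. Same-numbered libraries deviated with correlations of 0.12, -0.01 and 0.08, and not every library correlated best with its own number. With 3 libraries per group and divided controls, this cannot tell whether the numbers pair the libraries. Under other scalings, a check added after seeing the data, the groups lay apart in 2 to 3 of the 10 genes with higher and in 0 to 1 with lower values. In both directions together this was 20% with median-of-ratios scaling, against 19.7% of all genes. It was 40% with quantile normalization, against 20.3%, and 30% with the length and GC trend removed, against 22.3%. The Ccnd1 share of D-type cyclins differed by 2.30 points without controls 2 and 3 and by 2.60 to 3.54 points without single libraries.

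Signs of small fold changes turned. With median-of-ratios scaling Cdkn1a was -0.053, Cdkn2a -0.037, Cdk6 -0.051, E2f1 -0.013 and Trp53 -0.050. With the length and GC trend removed Ccnd2 was -0.047, Ccnd3 -0.053, Cdk6 -0.30, E2f1 -0.0041, Rb1 -0.048 and Trp53 -0.049. With quantile normalization Cdk6 was -0.10, E2f1 -0.017, Ezh2 -0.0074 and Rb1 -0.021. With a pseudocount of 5 Cdk6 was -0.0073. With library weights Skp2 was 0.029. Without controls 2 and 3 Ccnd2 was -0.30, Ccnd3 -0.026, Cdkn1a -0.064, Aurkb 0.0035, Bmi1 -0.014, Cdk6 -0.48, E2f1 -0.11, Ezh2 -0.0098, Rb1 -0.20 and Trp53 -0.0075. Leaving out single libraries gave -0.0081 to 0.19 for Ccne1, -0.029 to 0.070 for Cdkn1a, -0.018 to 0.15 for Cdkn2a, -0.25 to 0.016 for Aurkb, -0.12 to 0.036 for Cdk2, -0.20 to 0.25 for Cdk6, -0.12 to 0.024 for Cdk7, -0.014 to 0.15 for E2f1, -0.11 to 0.25 for Ezh2, -0.18 to 0.019 for Fas, -0.10 to 0.034 for Myc, -0.061 to 0.25 for Rb1 and -0.11 to 0.066 for Skp2. The cause was not tested.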
